A study of Mus musculus with 11 samples.

Results

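The distal segment of mouse chromosome 4 from 145000000 to 148000000 (mm9) held 7444 of the 1298473 huntingtin (HTT) ChIP-seq peaks in the 7 deposited lists, or 0.573% of them. The segment was chosen by the density and recurrence of peaks in these same lists. Its peak density and recurrence are therefore given as a description, with no test, and only contrasts that the choice did not use were tested. A peak counted as a member when its summit lay in the segment. The flanks from 140000000 to 145000000 and from 148000000 to 153000000, called the lower and the upper flank here, held 3409 and 2982 peaks.

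Chromatin came from striata of male littermates on a B6 background, 4 months of age, and HTT was precipitated from it with an antibody. The mutant group was Q111/+, heterozygous for an expanded CAG repeat knocked into the mouse's own Htt gene, so each mutant animal kept a wild-type allele. The control group was WT, with no expanded allele. There were 4 Q111/+ and 3 WT libraries from whole striatum, a mixture of cell types, and 4 input libraries without antibody that were not analysed here, so whether input reads also pile up in the segment was not tested. No label ties a library to an animal of its own, and the p-values therefore reflect library-to-library spread that may be technical. Nor do they say whether the antibody tells the expanded protein from the wild-type one. The file names of the lists carry the prefixes DB (Q111/+ replicates 1 and 2, WT replicate 1) and JP (Q111/+ replicates 3 and 4, WT replicates 2 and 3), which no label explains. The lists held 88920 to 495334 peaks. Each WT list was longer than any Q111/+ list, WT replicate 1 having the longest, and sequencing depth is unknown. Peak lists carry no expression values against which the labelled tissue could be checked.

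HTT is a large scaffold protein, and expansion of its glutamine tract causes Huntington's disease, in which neurons of the striatum are lost first. Zinc finger genes of the KRAB type encode DNA-binding repressors that silence transposable elements, and in the mouse genome they sit in clusters that grew by repeated segmental duplication. Short reads from such copies can align to more than 1 place, and no source used here says how such reads were treated. The RefSeq table of the later build GRCm38.p6 placed 17 of 21 listed zinc finger genes on chromosome 4, in 1 run of 77 genes from Zfp990 to Zfp933 that held 18 protein-coding genes and 52 pseudogenes. The next protein-coding gene after the run was Miip. That build is not the one of the lists, so no gene was placed at any peak, and the zinc finger label of the segment was not checked by position.

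The upstream bases of these genes show how alike the copies are. RefSeq (GRCm38.p6) gave 16 promoters of 13 of the genes, and 10 of them, 1 from each of 10 genes, were 67.04% to 99.2% identical to the first Zfp600 promoter over the 250 bases before the start. The other 5 were 40.8% to 48.3% identical to it. The promoter of Rex2 shared a run of 235 identical bases with that of Zfp600. Zfp979 had 3 substitutions against Zfp600, and Zfp980 had 17. These sequences are shown as examples of the duplication, not as bound sites. Capitals mark bases that differ from, or are inserted relative to, the Zfp600 promoter:
Zfp600: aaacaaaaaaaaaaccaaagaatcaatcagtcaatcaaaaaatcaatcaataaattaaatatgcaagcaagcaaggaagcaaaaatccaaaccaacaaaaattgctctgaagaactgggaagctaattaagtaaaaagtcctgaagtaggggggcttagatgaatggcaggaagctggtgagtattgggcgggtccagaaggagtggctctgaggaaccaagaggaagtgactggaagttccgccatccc
Rex2: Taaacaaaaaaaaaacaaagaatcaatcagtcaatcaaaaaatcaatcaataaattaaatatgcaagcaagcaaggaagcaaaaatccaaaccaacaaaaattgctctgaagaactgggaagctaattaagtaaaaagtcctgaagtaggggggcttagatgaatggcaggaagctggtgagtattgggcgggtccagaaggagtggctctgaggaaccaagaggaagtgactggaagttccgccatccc
Zfp979: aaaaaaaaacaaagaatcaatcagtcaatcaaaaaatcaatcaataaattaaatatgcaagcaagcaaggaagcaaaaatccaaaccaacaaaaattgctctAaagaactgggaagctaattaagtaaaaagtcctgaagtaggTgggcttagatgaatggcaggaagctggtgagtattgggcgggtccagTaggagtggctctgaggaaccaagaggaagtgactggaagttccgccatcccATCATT
Zfp980: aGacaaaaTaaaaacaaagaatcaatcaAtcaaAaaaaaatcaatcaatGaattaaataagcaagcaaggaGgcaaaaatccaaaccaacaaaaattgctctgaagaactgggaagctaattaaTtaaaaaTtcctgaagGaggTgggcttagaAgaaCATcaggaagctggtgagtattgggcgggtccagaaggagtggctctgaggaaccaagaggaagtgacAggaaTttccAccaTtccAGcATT

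Peaks filled the first 2.2 Mb of the segment and thinned out abruptly after it. Of the members, 6838 (91.9%) lay between 145000000 and 147200000. In that block the Q111/+ lists held 312, 250, 508 and 498 peaks per Mb and the WT lists 434, 573 and 533. In the remaining 0.8 Mb they held 51.2, 43.8, 17.5 and 30 in Q111/+ and 424, 106 and 85.0 in WT. WT replicate 1 alone kept nearly the same density on both sides of the edge. Across the edge, from the last 100 kb of the block to the next 100 kb, the count fell in the other 6 lists, from 26, 22, 45 and 51 to 12, 6, 2 and 6 in Q111/+ and from 46 to 19 and 49 to 12 in WT replicates 2 and 3. It went from 40 to 51 in WT replicate 1. The edge was placed after the counts were seen.

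**Figure D1:**
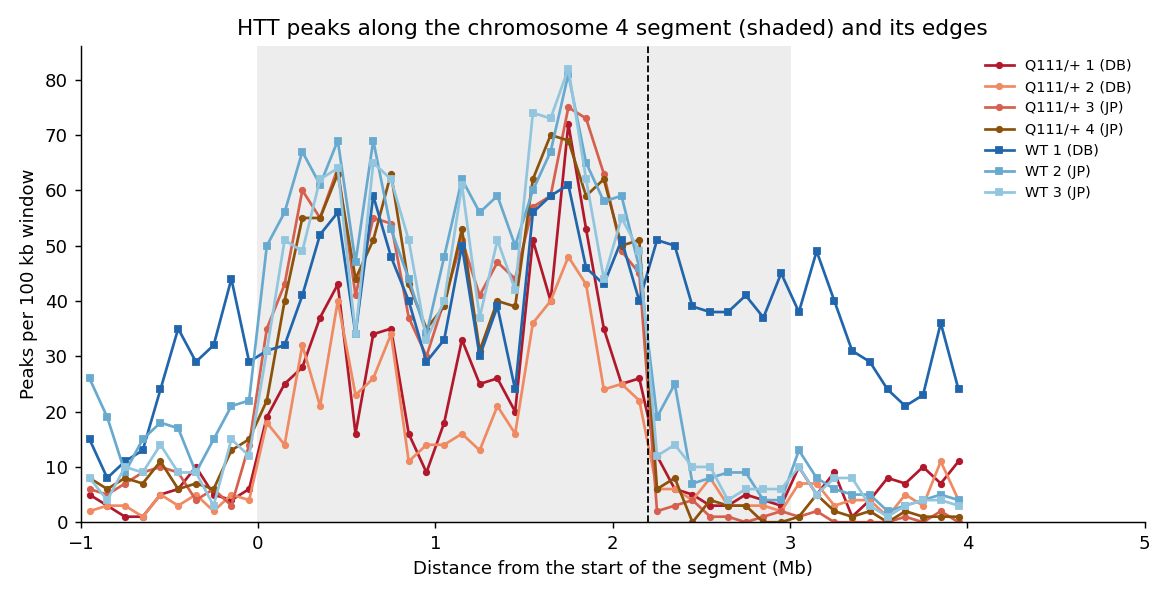
HTT peaks per 100 kb window (y axis) against distance from the start of the segment in Mb (x axis), 1 line per list, with the segment shaded and a dashed line at 2.2 Mb. All lists are high within the block. WT replicate 1 stays near its block level beyond the dashed line, and the other 6 lists drop.

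At the start, the last 100 kb outside held 4 to 29 peaks per list and the first 100 kb inside 18 to 50. WT replicate 1 went from 29 to 31 there and Q111/+ replicate 4 from 15 to 22, and the other 5 lists rose by more. At the end, the last 100 kb inside held 0 to 45 peaks and the first 100 kb outside 1 to 38, so the upper limit does not coincide with a step. Inside the block 4 stretches had no peak in any list, at 145489776 to 145540049, 145771398 to 145821664, 145967102 to 146017665 and 146260791 to 146311083. They were 50274, 50267, 50564 and 50293 bp long, and the next longest empty stretch of the segment was 10291 bp. The longest stretch without a peak was 51762 bp in the lower flank and 20363 bp in the upper one. Gaps of the assembly were not examined here. Together the peaks of the 7 lists covered 41.0% of the segment.

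Member numbers varied less between lists than list lengths did. The segment held 727, 586, 1132 and 1120 peaks in Q111/+ replicates 1 to 4 and 1293, 1346 and 1240 in WT replicates 1 to 3. Each WT list held more members than any Q111/+ list. Each WT list was also longer as a whole, with 137373 to 495334 peaks against 88920 to 111287. The flanks held 55.6, 38.8, 28.9 and 35.9 peaks per Mb in Q111/+ and 320, 91.9 and 67.6 in WT. Segment density was thus 4.36, 5.03, 13.1 and 10.4 times that of the flanks in Q111/+, and 1.35, 4.88 and 6.11 times in WT. The JP-prefixed lists had fewer peaks per Mb in the upper than in the lower flank, for example 12.8 against 45 in Q111/+ replicate 3. The DB-prefixed lists had more, 61.6 against 49.6 in Q111/+ replicate 1.

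As a share of its list, the segment did not differ detectably between the genotypes. Members made up 0.653%, 0.659%, 1.07% and 1.01% of the Q111/+ lists and 0.261%, 0.541% and 0.903% of the WT lists, and the groups overlapped. The means were 0.848 ± 0.223% (SD, n = 4) and 0.568 ± 0.322% (SD, n = 3), a difference of 0.28 percentage points (p = 0.2, two-sided exact permutation over 35 splits). This design cannot give a p below 0.0286. Within the prefixes the difference was 0.395 percentage points for DB and 0.319 for JP, with every Q111/+ list above every WT list in each (exact permutation within prefixes, p = 0.0556, the smallest possible). Without WT replicate 1 the pooled difference was 0.127 percentage points.

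The pooled difference was near 0 in lists of equal length, and the difference within the prefixes was smaller than in the full lists and did not pass the test. When each list was reduced to its 88920 peaks with the highest −log10 p, the length of the shortest list, the segment held 651, 586, 1089 and 1047 peaks in Q111/+ and 537, 950 and 1043 in WT. The shares were 0.948 ± 0.294% (SD, n = 4) and 0.948 ± 0.303% (SD, n = 3), a difference of -9.37e-05 percentage points (exact permutation p = 1). The prefixes are unevenly spread over the genotypes, and within each prefix every Q111/+ share was above every WT share, by 0.0917 percentage points for DB and 0.0804 for JP on average (exact permutation within prefixes, p = 0.167). The lowest −log10 p kept ranged from 3.00 in Q111/+ replicate 2 to 11.6 in WT replicate 1. The log2 ratio of segment to flank density was 2.89 ± 0.775 in Q111/+ and 1.78 ± 1.18 in WT in the full lists, a difference of 1.11 (exact permutation p = 0.257). Within the prefixes it was 1.80 for DB and 1.09 for JP (exact permutation within prefixes, p = 0.0556). It became 0.40 (exact permutation p = 0.6) in lists of equal length, and 0.44 without WT replicate 1. Within the prefixes of the lists of equal length it was 0.71 for DB and 0.59 for JP, again with every Q111/+ list above every WT list (exact permutation within prefixes, p = 0.0556, the smallest possible).

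The lists of equal length separated by file-name prefix. The 3 DB-prefixed lists held 591 ± 57.2 members (SD, n = 3) and the 4 JP-prefixed lists 1032 ± 58.6 (SD, n = 4), and the groups did not overlap in either genotype. As shares these were 0.665 ± 0.0643% and 1.16 ± 0.066%, a difference of -0.496 percentage points (exact permutation p = 0.0286, the smallest possible, not adjusted). In the full lists the difference was -0.357 percentage points (exact permutation p = 0.114), and its mean within genotypes was -0.422 (exact permutation within genotypes, p = 0.111).

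**Figure D2:**
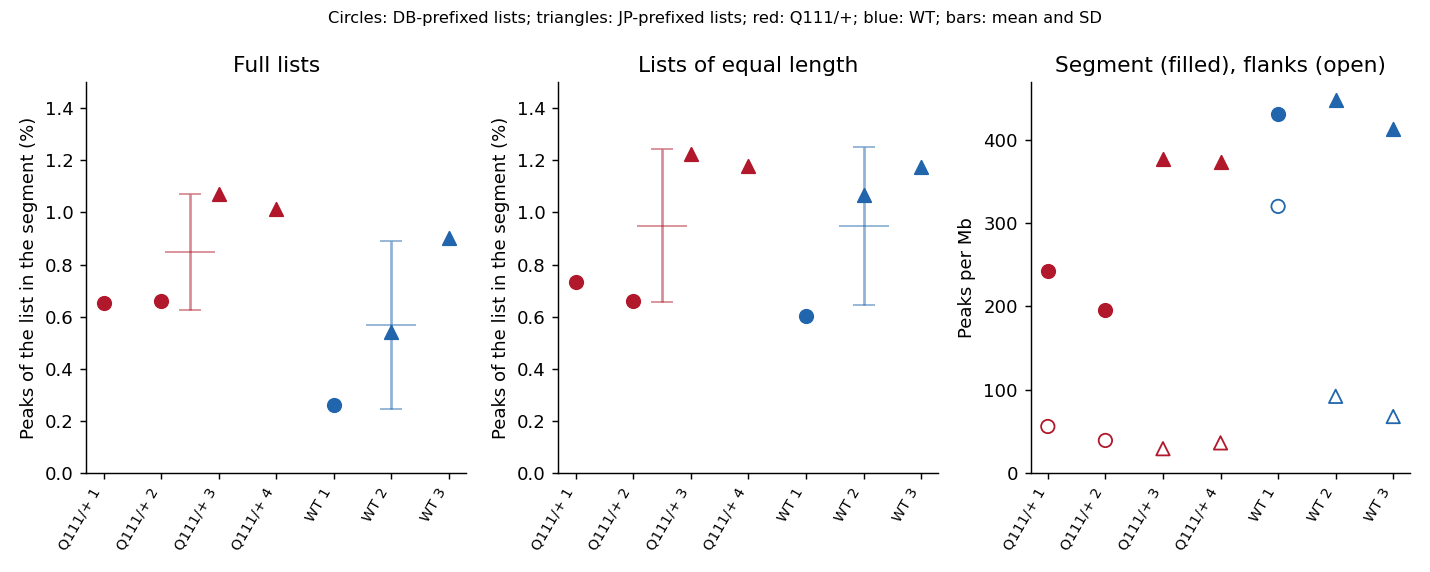
Percent of each list's peaks that lie in the segment, in the full lists (left) and in lists of equal length (middle), and peaks per Mb in the segment and the flanks of the full lists (right), for the 7 lists on the x axis. Horizontal marks with bars give the mean and SD of 4 Q111/+ and 3 WT lists. In the middle panel the genotype means are both 0.948%, all JP-prefixed lists lie above all DB-prefixed ones, and within each prefix the Q111/+ lists lie above the WT lists.

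The segment took a larger share of the strongest peaks than of the full lists. Ranked by −log10 p, the top 10000 peaks of a list had 1.38% to 4.22% of their number in the segment, and the top 1000 1.5% to 4.2%. Its flanks, which are 10 Mb in all, held 22 to 54 of the 10000 highest, against 138 to 422 in the 3 Mb of the segment. The median member stood at percentile 70.0, 61.7, 86.0 and 78.8 of its own list by −log10 p in Q111/+ and at 73.6, 86.4 and 83.4 in WT. The genotype means were 74.1 ± 10.6 (SD, n = 4) and 81.2 ± 6.66 (SD, n = 3), a difference of -7.00 (exact permutation p = 0.371), which was -7.77 within DB and -2.48 within JP. By prefix they were 68.5 ± 6.10 (SD, n = 3) for DB and 83.7 ± 3.49 (SD, n = 4) for JP, a difference of -15.2 (exact permutation p = 0.0286). That p is the smallest possible and was not adjusted for the number of measures compared between prefixes.

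Members were wide and of moderate enrichment. Their median width was 226, 222.5, 313 and 271 bp in Q111/+ and 250, 266 and 226.5 bp in WT, against 173 to 210 bp over the whole lists. Between 5.12% and 22.5% of members were over 500 bp wide, against 1.11% to 5.02% of flank peaks, and the widest member measured 2739 bp, in Q111/+ replicate 3. On the log2 scale the median width was 7.998 ± 0.234 in Q111/+ (SD, n = 4) and 7.95 ± 0.117 in WT (SD, n = 3), a difference of 0.05 (exact permutation p = 0.743). The median of the authors' fold enrichment, the ratio of a summit to its local background, was 3.38, 3.38, 3.32 and 3.37 in the Q111/+ lists and 3.87, 3.71 and 3.71 in the WT lists. These groups did not overlap. On the log2 scale they were 1.75 ± 0.0128 (SD, n = 4) and 1.91 ± 0.0344 (SD, n = 3), a difference of -0.16 (exact permutation p = 0.0286, 0.171 after Benjamini-Hochberg adjustment over the 6 measures compared between genotypes). It was -0.19 within DB and -0.15 within JP (exact permutation within prefixes, p = 0.0556, the smallest possible). In lists of equal length the difference was -0.30, and among the 10000 highest peaks per list -0.32 (exact permutation p = 0.0286 for each). Both cuts removed more of each WT list than of any Q111/+ list, so these values add no separate support. The lists were called separately, and fold takes stepwise values that depend on each list's scale. Set against the flanks of the same list, the log2 fold of members was higher by 0.13, 0.14, 0.25 and 0.22 in Q111/+ and by 0.28, 0.31 and 0.25 in WT. That contrast differed by -0.09 between genotypes (exact permutation p = 0.0857), and by 0.11 in the opposite direction in lists of equal length (exact permutation p = 0.257).

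Few sequenced fragments stood behind a member. The deposited fold and −log10 p of every member matched a whole number of fragments multiplied by 1 scale per list (tolerance 0.02 in −log10 p), against 0.0773% to 0.707% of members at a wrong scale. The median member held 6, 6, 7 and 7 fragments in Q111/+ and 5, 6 and 7 in WT, and the highest 18, 16, 23 and 23 in Q111/+ and 24, 24 and 31 in WT. A count of 5 fragments has a 95% Poisson interval of 1.62 to 11.7 and a count of 7 one of 2.81 to 14.4, which cover counting error only. In the flanks the median was 4 or 5 in every list. Members with 10 or more fragments made up 6.14% to 22.2% of the lists' members, against 0% to 1.04% of peaks in the lower flank and 0% to 2.06% in the upper one.

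The local background was also higher in the segment. Its median at members was 1.61, 1.58, 1.84 and 1.83 fragments per position in Q111/+ and 1.18, 1.32 and 1.66 in WT. In 20000 randomly drawn peaks of the same lists it was 1.34, 1.33, 1.65 and 1.58, and 1.14, 1.21 and 1.44. The ratio was 1.03 to 1.2, lowest in WT replicate 1. In the lower flank it was 0.979 to 1.00, and in the upper one 1.04 to 1.14. In every list but Q111/+ replicate 2 the median of the drawn peaks lay at their lower quartile. Many peaks thus shared a single low background value, and a ratio of 1.00 can reflect that shared value. A background of at least 1.5 times the median of the drawn peaks was found at 15.1% to 27.3% of members, 1.15% to 5.71% of lower flank peaks and 4.69% to 9.27% of upper flank peaks. Copy number of the sequence was not tested.

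**Figure D3:**
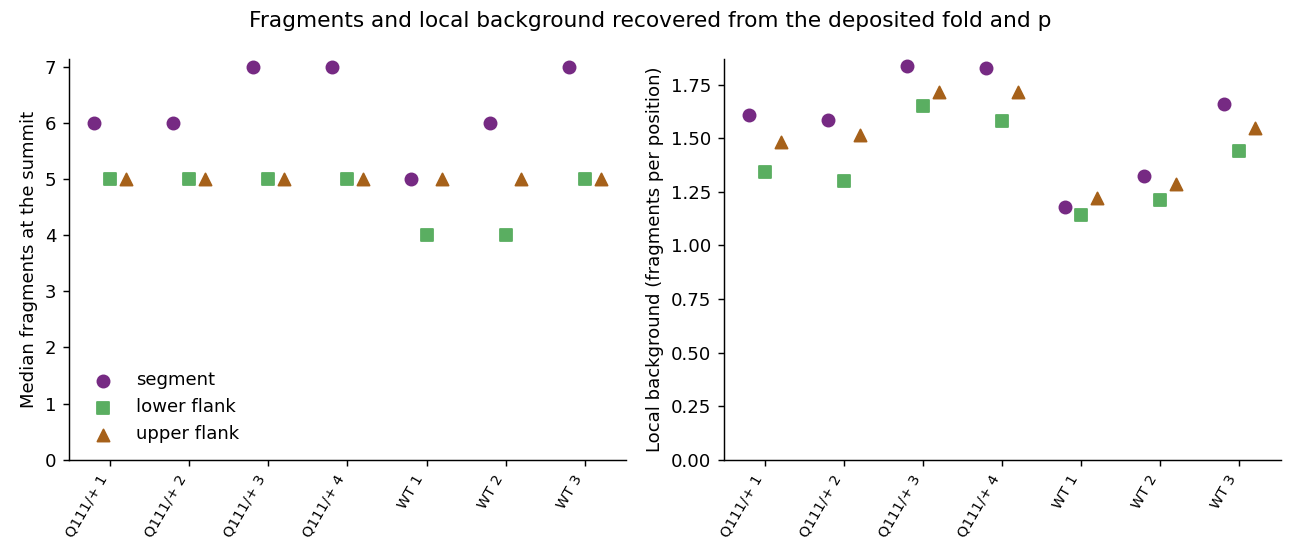
Median number of fragments at the summit (left) and median local background in fragments per position (right) for peaks of the segment and of both flanks, for each of the 7 lists on the x axis. Background is highest in the segment in 6 lists, and in WT replicate 1 it is 1.18 in the segment and 1.22 in the upper flank.

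Recurrence was described in the lists of equal length, with peaks joined into a region where they overlapped by at least 1 bp. The segment held 2105 regions, of which 938 (44.6%) were called in 1 list, 513 (24.4%) in 4 or more and 77 (3.66%) in all 7. Of the 2298 flank regions 2087 (90.8%) were called in 1 list, 23 (1.00%) in 4 or more and 2 in all 7. Over the 21 chromosomes 1097 of 536351 regions were called in all 7, so the segment held 7.02% of them. All 77 lay in the first 2.2 Mb, the outermost from 145216364 to 147184117, with a median spacing of 8074 bp between midpoints and a median width of 1517 bp. All 513 regions called in 4 or more lists lay there too. The base-pair Jaccard index, bases shared by a pair of lists divided by the bases either covers, was 8.90% to 24.2% over the 21 pairs of lists in the segment and 1.40% to 5.71% in the flanks. Pairs of JP-prefixed lists had the highest indices by prefix, 19.1% to 24.2%, and pairs of DB-prefixed lists ranged from 8.90% to 13.7%. The JP-prefixed lists also held more members in lists of equal length. Peaks of the full lists covered 5.09% to 14.8% of the segment and 0.710% to 8.34% of the flanks. Neither recurrence nor the index was corrected for such differences in coverage.

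**Figure D4:**
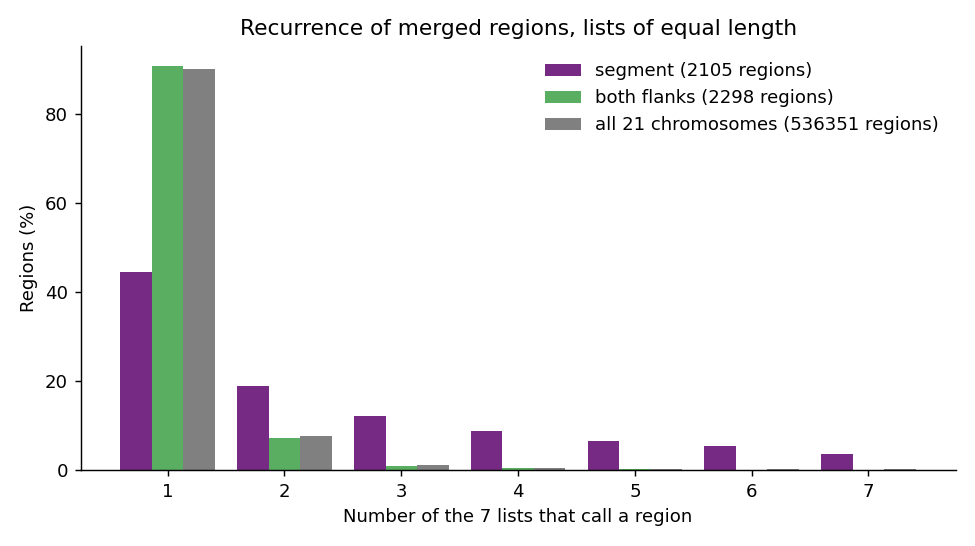
Percent of merged regions (y axis) by the number of the 7 lists that call them (x axis), for the segment, both flanks and all 21 chromosomes. In the segment 44.6% of regions were called in 1 list and 3.66% in all 7, and in the flanks 90.8% and 0.0870%.

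The DB-prefixed lists limited the count of regions common to all lists, WT replicate 1 the most. WT replicate 1 called 77 of the 130 regions that the other 6 lists shared (59.2%). Its peaks had been cut at the highest −log10 p, 11.6. Q111/+ replicate 2 called 77 of 106 (72.6%) and Q111/+ replicate 1 77 of 94 (81.9%). The JP-prefixed lists called 77 of 78 to 77 of 82. Without WT replicate 1 the segment held 129 regions called in every list. It held 105 without Q111/+ replicate 2, 93 without Q111/+ replicate 1, and 70 to 80 without 1 of the JP-prefixed lists. Peaks in regions called in all 7 lists had a median of 7 to 11 fragments and a background of 1.62 to 2.51 fragments per position, over the lists. Peaks in regions called in 1 list had 5 or 6 fragments and a background of 1.14 to 1.66.

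The recurrent regions were spread unevenly over the windows of the block. The 3 windows of 100 kb with the most regions called in 4 or more lists were at 146700001 to 146800000 with 47, at 145400001 to 145500000 with 38 and at 146800001 to 146900000 with 34. The first of them held 17 of the 77 regions common to all lists. It held 72, 48, 75 and 69 peaks in the full Q111/+ lists and 61, 81 and 82 in the WT lists, so the genotypes overlapped. All 22 windows of the block held 6 or more regions called in at least 4 lists, and the 8 windows beyond it held 0.

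The 10 regions ranked highest by their lowest percentile over the 7 lists included 5 at 146.71 to 146.81 Mb. The highest, at 146710818 to 146713048, held 13, 11, 15 and 14 fragments in Q111/+ and 15, 15 and 20 in WT. The genotypes touch at 15 fragments there. The authors' fold was 3.62, 3.77, 3.78 and 3.52 in the Q111/+ lists and 5.36, 4.67 and 5.35 in the WT lists, and these did not overlap. The median fold of all members also did not overlap between the genotypes, so this is not particular to the region. The share of regions over all chromosomes that separate by fold is not given here. At 146802299 to 146806906 there were 18, 16, 23 and 23 fragments in Q111/+ and 21, 15 and 25 in WT. The third, at 146792072 to 146795217, held 14, 15, 22 and 20 in Q111/+ and 21, 16 and 13 in WT. In these last 2 regions the fragments overlapped between the genotypes. The fold at 146802299 to 146806906 overlapped too, with 4.51, 2.75, 3.84 and 3.91 in Q111/+ and 4.07, 3.90 and 3.31 in WT. At 146792072 to 146795217 it did not, with 3.88, 2.86, 3.72 and 3.59 in Q111/+ and 5.48, 5.80 and 4.05 in WT. The widest region common to all lists ran over 6331 bp from 146723548 to 146729878 and held 3 to 7 separate peaks per full list, with 10 to 13 fragments at the highest. The others of the 10 were at 146807064 to 146808580 and, lower in the segment, at 145434213 to 145436270, 145420669 to 145422599, 145429334 to 145430385, 145739115 to 145744044 and 145750562 to 145751202. In the flanks 2 regions were called in all lists, at 149887835 to 149889145 and 149184218 to 149185382, with 6 to 10 and 7 to 17 fragments.

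Regions called in every list of 1 genotype and none of the other were counted next, in lists of equal length. Of the segment's 187 regions called in exactly 4 lists, 7 (3.74%) were called in all 4 Q111/+ and no WT list, against 2.48% over all chromosomes. Of its 256 regions called in exactly 3 lists, 8 (3.13%) belonged to the 3 WT lists alone, against 6.75% over all chromosomes. As shares of all regions these calls were 0.333% and 0.380% in the segment and 0.0112% and 0.0781% over all chromosomes, where fewer regions recur at all. The counts depended on the lists used. The WT count was 38 in the full lists, 42 without WT replicate 1 and 28 without WT replicate 2. Over all chromosomes the WT share of all regions rose too, from 0.0781% to 0.321%, 0.690% and 0.651% in that order. The Q111/+ count was 10 to 21 with 1 library left out, and over all chromosomes the Q111/+ share was then 0.0169% to 0.0523% of all regions. The total of segment regions is not given for these settings, so these counts cannot be compared directly with the shares. The Q111/+ region ranked highest, at 145448004 to 145449488, held 9, 8, 11 and 9 fragments and had no peak in a full WT list. The next, at 146937831 to 146938634, held 7, 7, 7 and 9 and also had none. That at 145666259 to 145667010 had none either, and those at 145176569 to 145177061 and 146913371 to 146913786 each had a peak in the full list of WT replicate 2. The WT regions ranked highest were at 146171837 to 146172369, with 9, 7 and 7 fragments, and at 145409691 to 145410542, with 7, 8 and 10. Others were at 145547765 to 145548580, 146193991 to 146194261 and 146977718 to 146978035, and all 5 lacked a peak in every full Q111/+ list.

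Regions called in every list of 1 prefix and none of the other were counted in the same way. In lists of equal length the DB-prefixed lists held fewer members (591 ± 57.2, SD, n = 3) than the JP-prefixed ones (1032 ± 58.6, SD, n = 4). Of the 187 regions called in exactly 4 lists, 18 (9.63%) were called in all JP-prefixed and no DB-prefixed list, against 7.73% over all chromosomes (0.855% of all regions in the segment and 0.0349% over all chromosomes). Of the 256 called in exactly 3 lists, 0 were called in all DB-prefixed and no JP-prefixed list, against 2.8% over all chromosomes, where they were 0.0324% of all regions. Among the 77 regions common to all lists, the percentile of −log10 p was higher in every WT than in any Q111/+ list at 2 (2.60%, against 9.21% of the 1097 regions over all chromosomes) and higher in every Q111/+ list at 0 (against 2.19%). It was higher in every JP-prefixed than in any DB-prefixed list at 9 (11.7%, against 8.02%) and the reverse at 0 (against 2.1%). In windows of 100 kb of the full lists, 1 of 30 in the segment had a share higher in every Q111/+ list, at 146800001 to 146900000, and 1 a share higher in every WT list, at 147300001 to 147400000, against 1.81% and 2.67% of 25679 windows over all chromosomes.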

How the data were processed

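Peaks of 7 HTT ChIP-seq libraries were analysed. The chromatin was cut with micrococcal nuclease and sonicated, per the labels' protocols. The submitters' processing notes name Bowtie2 2.2.5, MACS2 2.1 and mm9 without a role or order. The deposited list names show MACS at a p of 0.001 and a list for each library. No source used here says whether peaks were called against input. The deposited lists give the authors' fold (a ratio to local background), the −log10 of the p-value and the q-value, and a score derived from the −log10 p, which was not used.

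Coordinates are 1-based. Lists of equal length kept the 88920 highest peaks by −log10 p, with ties ordered by fold and then at random. Genotypes and prefixes were compared by two-sided exact permutation of the difference of means over 35 splits, or within prefixes over 18. Fragments were recovered from fold and −log10 p with the Poisson formula of MACS, a step that was checked on simulated data. Regions were named by their lowest percentile, by width and by genotype pattern. Promoters were aligned over 250 bases. The segment, lists, measures and naming rules were chosen with earlier results of these data known. Alternatives were stricter thresholds, list lengths, overlap rules, the first 2 Mb, left-out libraries and blocks. Python 3.11.15, numpy 2.4.6, pandas 2.3.3, scipy 1.17.1, Biopython 1.88 and matplotlib 3.10.9 were used.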

Additional observations from a re-analysis of the deposited data

Results flagged for a closer look

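The width of the member peaks moved in opposite directions in the 2 prefixes. The log2 median width in Q111/+ minus WT was -0.16 in the DB-prefixed lists, where both Q111/+ lists lay below the WT list. It was 0.25 in the JP-prefixed lists, where both Q111/+ lists lay above both WT lists. This difference between the prefixes was not tested. Of 9 measures compared among the 4 Q111/+ lists, 0 had a list far from the others by Dixon's criterion, which chance meets in about 1 group in 20.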

How the results depend on the processing

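Between genotypes, only the median fold passed 0.05, before adjustment and not after it. Its difference of -0.16 was -0.16 with the replicate block (exact permutation p = 0.25) and -0.17 within prefixes (exact permutation p = 0.0556), and ran from -0.17 to -0.14 with 1 library left out (p = 0.0667 to 0.1), and these reduced designs cannot reach 0.05. It was -0.30 in lists of equal length and -0.32 among the 10000 highest peaks per list (exact permutation p = 0.0286 for each). These cuts removed more of each WT list than of any Q111/+ list, so they add no separate support. The share difference was -9.37e-05 percentage points in lists of equal length and -0.139 among the 10000 highest peaks per list, and 0.127 to 0.447 with 1 library left out. For width it was -0.11 and -0.13 under these settings, -0.048 without Q111/+ replicate 3 and -0.01 without WT replicate 3, and 0.12 at the highest without Q111/+ replicate 2. The rank difference was 0.634 among the 10000 highest, and the fold contrast 0.11 in lists of equal length. Within prefixes and in lists of equal length together, an alternative added after seeing the data, the differences were 0.086 percentage points for share, 0.65 for the log2 density ratio, -0.34 for fold (exact permutation p = 0.0556), -0.15 for width, -0.442 for rank and 0.12 for the fold contrast. The prefix contrast was -0.496 in lists of equal length (exact permutation p = 0.0286, not adjusted). The cause of these shifts was not tested.

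The counts of regions common to all lists, of all Q111/+ and no WT, and of all WT and no Q111/+ were 77, 7 and 8. They were 8, 2 and 5 among the 10000 highest peaks. There the Q111/+ and WT patterns made up 0.0234% and 0.296% of all regions over all chromosomes. The counts were 7, 1 and 20 when members needed a Poisson p of 0.001 or less on the unscaled fragments, an alternative added after seeing the data. Shares over all chromosomes are not given here for that alternative, so its counts are not read as particular to the segment. The full lists gave 38 of the third kind. With 1 library left out they ran from 70 to 129, 10 to 21 and 11 to 42. Windows with a higher Q111/+ share numbered 0 in lists of equal length and 0 at 250 kb, and 1 to 9 with 1 library left out (9 without WT replicate 3). Windows with a higher WT share numbered 2 at 50 kb and 1 to 4 with 1 library left out (4 without WT replicate 2). The shares of such windows over all chromosomes are not given here for these settings.

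The replicate numbers did not pair the lists. Deviations from the group means over 2584 windows of 1 Mb correlated at 0.848, -0.809 and -0.0163 for numbers 1, 2 and 3. Numbers 1 and 3 each join lists of the same prefix, and number 2 joins different ones. The replicate block leaves out Q111/+ replicate 4 and cannot give a p below 0.25 (exact permutation). With it the differences were 0.226 percentage points for share, 0.94 for the log2 density ratio and 0.02 for log2 width. They were -8.56 for rank and -0.10 for the fold contrast. None of these passed 0.05, which this design cannot reach. Most members hold fewer than 10 fragments, and sequencing depth is unknown.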
